A study of Mus musculus with 6 samples.

Results

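The genes described here are 42 regulators of actin filaments and of the transcription factor SRF, among 32048 genes with summed counts. They were chosen by symbol, with no cut on measured values, but earlier results of these data were known. All 42 were found and all passed the filter on low counts, which kept 12693 genes. The mRNA came from mouse embryonic fibroblasts immortalized with SV40 large T antigen and exposed to AAV8-CMV-Cre, an adeno-associated virus that carries Cre recombinase under a CMV promoter. Of the 6 clonal lines, raised from single cells, 3 came from Macf1flox/+ mice (het, Macf1-/+ after Cre) and 3 from Macf1flox/flox mice (knockout, Macf1-/-). Large T, the virus and Cre were therefore shared by both groups, and the het clones also carry 1 recombined Macf1 allele. Macf1 encodes a large protein that crosslinks actin filaments and microtubules. RNA was taken at confluence. Serum starvation is described for cells that were stained, and the sources used here do not say whether the cells used for RNA were starved. Ages and the number of parental embryos are not given either. The labels trace the groups to mice of different genotypes, so genotype and origin cannot be told apart, and p-values measure only the spread between clones. A single clone of a genotype counts as 1 replicate, and replicate numbers are names only.

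Actin filaments assemble from globular monomers, and formins and the Arp2/3 complex nucleate them, profilin delivers monomers, and cofilins sever older filaments. Monomeric actin also binds the coactivators MRTF-A and MRTF-B (encoded by Mkl1 and Mkl2, which newer annotation calls Mrtfa and Mrtfb). When monomers are used up by assembly, MRTFs enter the nucleus and, with SRF, switch on genes through a DNA element called the CArG box, among them actin genes themselves. In fibroblasts this circuit links adhesion, contractility and serum stimulation to transcription.

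Promoters were searched for the CArG box, read as CC, then 6 bases that are each A or T, then GG, which is the same pattern on both strands. The window ran from 250 bases before to 50 bases after each start site in RefSeq (GRCm38.p6). Of the 42 genes, 37 had a promoter in that table, and Actb, Cttn, Coro1b, Diaph1 and Rock1 had none. A CArG box was found in 5 of these 37 genes (13.5%), namely Srf, Actg1, Fhl1, Fhl2 and Arpc4. Among all 27025 genes with a promoter the share was 1.81%. The sequences that hold it are printed 5′ to 3′ with the CArG box in capitals, because SRF is known to act through this element. For Srf and Actg1 the bases upstream of the annotated transcripts are given, and for the others a short stretch around the match.
Srf, chr17:46556176-46556412, minus strand: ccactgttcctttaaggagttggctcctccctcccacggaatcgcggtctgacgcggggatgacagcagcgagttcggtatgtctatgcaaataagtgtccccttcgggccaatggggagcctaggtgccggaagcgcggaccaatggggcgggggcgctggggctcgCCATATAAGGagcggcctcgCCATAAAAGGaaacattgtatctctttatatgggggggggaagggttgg
Actg1, chr11:120348543-120348745, minus strand: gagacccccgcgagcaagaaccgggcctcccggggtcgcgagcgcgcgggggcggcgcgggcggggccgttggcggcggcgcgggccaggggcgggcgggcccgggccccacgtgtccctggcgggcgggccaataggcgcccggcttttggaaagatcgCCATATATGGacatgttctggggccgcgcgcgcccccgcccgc
Fhl1, chrX:56779571-56779600, plus strand: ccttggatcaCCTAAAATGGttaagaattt
Fhl2, chr1:43163973-43164002, minus strand: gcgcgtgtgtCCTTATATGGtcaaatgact
Fhl2, chr1:43196838-43196867, minus strand: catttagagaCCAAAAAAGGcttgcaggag
Arpc4, chr6:113377863-113377882, plus strand: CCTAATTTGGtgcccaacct
Srf itself carried 2 matches, 82 to 73 and 62 to 53 bases before its start site, and Actg1 carried 1 at 90 to 81 bases. The match of Fhl1 lay 102 to 93 bases before a start site in the middle of the gene, and those of Fhl2 lay before 2 separate start sites. All matches of Fhl1 and Fhl2 lay within the annotated span of their gene. A match is a description of these letters and was not tested as a binding site.

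Log2 fold changes were small for most of the 42 genes, and the number that passed depended on the method. With a limit of 0.05 on the adjusted p (edgeR, quasi-likelihood), 7 of the 42 genes passed (16.7%), against 28.1% of all genes tested. Cfl2, Wasl and Diaph2 were higher in knockout clones, and Fhl1, Wasf3, Wasf2 and Limk2 were lower. The other 35 did not pass. With DESeq2, 7 of the 42 were higher and 6 lower, and 4350 of the 12693 genes passed. The median size of the log2 fold change, sign left out, was 0.22 for the 42 genes and 0.35 for all genes, which were not matched to them for level. The signed medians were 0.06 and -0.00074. Log2 fold changes lay within 0.5 of 0 for 33 of the 42 and for 8103 of 12693 genes. Het and knockout clones kept apart, without overlap, for 15 of the 42 genes, against 47.5% of all genes. Knockout lay above het for 8 of these and below for 7, against 23.8% and 23.7% of all genes. At an unadjusted p under 0.05 were 15 of the 42, against 41.4% of all genes. Levels are given below as CPM, which sets estimated counts against the library total after TMM scaling, and levels of different genes are compared only per transcript length, as FPKM or as counts divided by length. In bulk RNA fewer cells of a kind and less RNA per cell cannot be told apart.

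**Figure D1:**
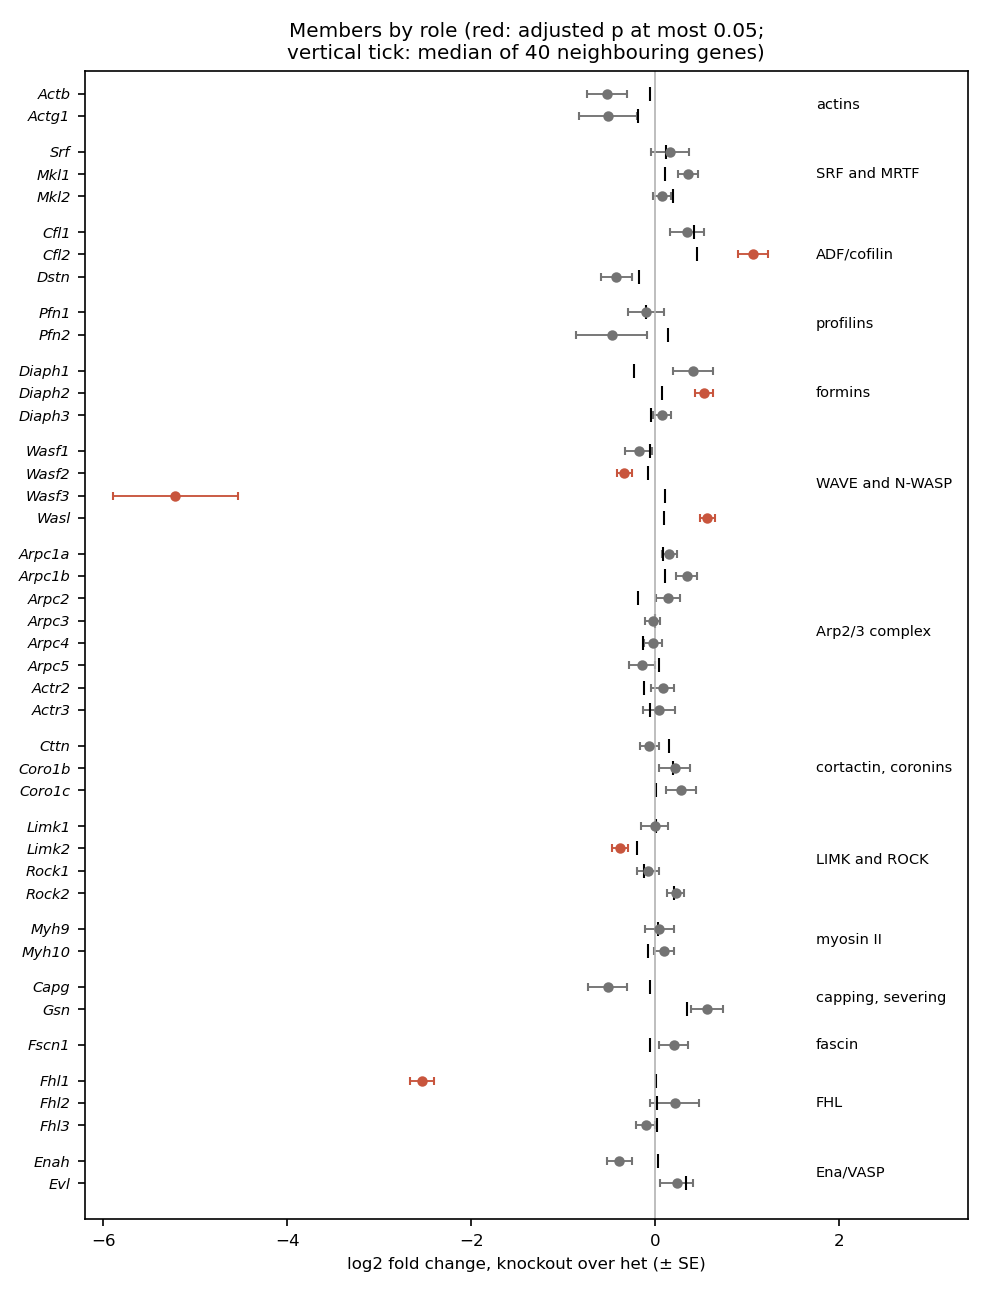
Log2 fold change of each of the 42 genes, knockout over het, with bars for 1 SE, arranged by role. Red points mark the 7 genes that passed, and the black tick is the median of the 40 nearest tested genes on the chromosome. Fhl1 at -2.53 and Wasf3 at -5.22 lie far from the rest.

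The libraries held 15661342 to 18209673 estimated counts. Macf1 mRNA, the targeted gene, measured 693.5, 695.6 and 579 CPM in the het and 309.3, 362.7 and 321.5 CPM in the knockout clones. The fibroblast marker genes summed to 9008 to 12520 CPM in het and 5605 to 8132 CPM in knockout clones. Vim and Fn1 were abundant in all 6 clones, while Lum was at 0 in all, and Thy1 and Dcn did not go above 1.02 CPM. Col1a1, a defining fibroblast collagen, ranged from 1018 to 1498 CPM in het and from 2.69 to 13.8 CPM in knockout clones. Col1a2 measured 1931, 408 and 830 CPM in het and 0.86, 1.23 and 0.36 CPM in knockout clones. Col3a1, Pdgfra, Pdgfrb, Fn1 and Dcn were also lower in each knockout clone, as were 23.7% of all genes tested, while Vim overlapped. Epithelial markers did not go above 1 CPM in any clone. Skeletal muscle markers summed to 5.05 CPM at most, with Myod1, Myog and Myf5 at 0. Endothelial markers summed to 3.15 CPM and haematopoietic markers to 6.39 CPM at most. Neural markers, mostly Nes, summed to 92.4 to 226 CPM in het and 114 to 125 CPM in knockout clones. The part of these differences in the results on actin genes was not tested. Knockout replicate 3 was the lowest of the knockout clones for 28 of the 42 genes (66.7%), against 38.0% of all genes. With library totals in place of TMM these shares were 45.2% and 24.6%.

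Of the genes for SRF and its MRTF coactivators, 0 of 3 passed by edgeR, against 28.1% of all genes, with 1 at an unadjusted p under 0.05, against 41.4%. Srf measured 69.4, 50.3 and 44.5 CPM in het clones and 72.3, 62.3 and 49.6 CPM in knockout clones. The ranges overlapped almost wholly (log2 fold change 0.16, SE 0.21, adjusted p = 0.586, edgeR). Mkl2, which encodes MRTF-B, measured 92.4, 97.4 and 88.6 CPM in het and 92.1, 107 and 93.8 CPM in knockout clones, again with overlap (0.07, SE 0.10). Mkl1, which encodes MRTF-A, measured 70.6, 86.4 and 87.2 CPM in het and 99.6, 103.8 and 109.1 CPM in knockout clones. Every knockout clone lay above every het clone, but the gene stayed just short of the threshold (log2 fold change 0.36, SE 0.11, adjusted p = 0.0519, edgeR). With DESeq2 it passed (adjusted p = 0.0259).

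Mkl1 (chromosome 15, 81012281 to 81190757, minus strand, GRCm38) differed more in where its transcripts began. This was singled out after the values were seen. The transcript Mrtfa-201, which starts at 81105083 inside the gene, measured 5.19, 0.00 and 6.07 CPM in het clones and 34.9, 37.1 and 43.1 CPM in knockout clones. Its share of the gene's counts was 7.35%, 0.00% and 6.96% in het and 34.99%, 35.8% and 39.5% in knockout clones. The 5 transcripts that start far upstream, between 81190522 and 81190757, together measured 64.3, 84.7 and 79.8 CPM in het and 63.7, 65.5 and 64.9 CPM in knockout clones. The knockout clones lay near the lowest het clone there, while Mrtfa-201 separated the genotypes fully. Among all transcripts tested, Mrtfa-201 did not pass (edgeR on transcripts, log2 fold change 3.42, SE 1.10, adjusted p = 0.121). In the authors' deposited table it had a log2 fold change of 3.38 and an adjusted p of 0.00182. The minor upstream transcript Mrtfa-203 passed as lower, from 0.64, 0.66 and 1.43 CPM to no counts in any knockout clone (adjusted p = 0.0390, edgeR on transcripts). Transcripts of a gene share exons, so each level is an estimate.

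**Figure D2:**
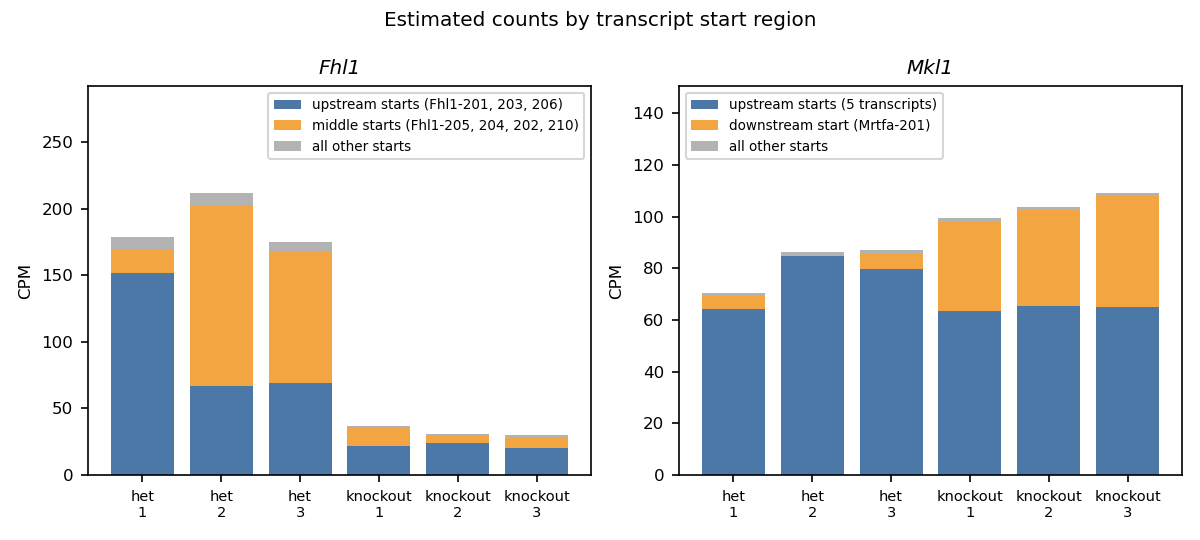
CPM of Fhl1 and Mkl1 in each clone, stacked by the region in which the transcripts start. The Mkl1 transcript with the downstream start reached 34.9 to 43.1 CPM in knockout and at most 6.07 CPM in het clones. Upstream Fhl1 starts made up 84.7% of the gene in het replicate 1, and 31.4% and 39.3% in het replicates 2 and 3.

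The 2 cytoplasmic actins, the monomers of the circuit and the most abundant members together with Cfl1, did not pass. In het clones mean levels were 1385 FPKM for Actg1, 1189 FPKM for Cfl1 and 1172 FPKM for Actb. Actb measured 1966, 2691 and 1926 CPM in het and 1731, 1654 and 1194 CPM in knockout clones. The groups did not overlap (log2 fold change -0.52, SE 0.22, adjusted p = 0.118, edgeR), and DESeq2 called the difference (adjusted p = 0.0292). Actg1 measured 2469, 3017 and 2087 CPM in het and 2276, 2021 and 1033 CPM in knockout clones. Knockout replicate 1 lay above het replicate 3, and knockout replicate 3 stood well below all others. The log2 fold change of Actg1 was -0.51 (SE 0.31, adjusted p = 0.265, edgeR) and -0.24 without knockout replicate 3 (adjusted p = 0.374, edgeR). That of Actb without the same clone was -0.38 (adjusted p = 0.171, edgeR). The Actb share of the 2 actins was 45.8% ± 1.88 of FPKM in het and 47.0% ± 5.52 in knockout clones (SD, n = 3). Thus the shares overlapped. Processed pseudogenes that resemble Actg1 held 0.0742% as many counts as Actg1.

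Among the genes that sever filaments or bind monomers, Cfl2 rose. Cfl2 encodes cofilin-2, the isoform best known from muscle (chromosome 12, 54858809 to 54862877, minus strand). It measured 92.8, 81.4 and 60.5 CPM in het and 172, 166 and 154 CPM in knockout clones. All knockout clones lay well above all het clones, a 2.09-fold difference of the means (log2 fold change 1.06, SE 0.16, adjusted p = 0.00479, edgeR). The median over the 40 nearest tested genes was 0.46 on the log2 scale, and with that median taken out the value for Cfl2 was 0.61 (adjusted p = 0.0360, edgeR). Cfl1, the general cofilin, measured 1569, 1207 and 1279 CPM in het and 1963, 1776 and 1422 CPM in knockout clones. Its groups overlapped (0.35, SE 0.19, adjusted p = 0.203, edgeR). Dstn, which encodes the related protein destrin, measured 252, 273 and 211 CPM in het and 218, 184 and 147 CPM in knockout clones, also with overlap (-0.42, SE 0.17). Within the family, Cfl2 made up 1.99% ± 0.31 of FPKM in het and 3.41% ± 0.37 in knockout clones, and Dstn 9.72% ± 1.71 and 5.79% ± 0.23 (SD, n = 3). Cfl1 remained the bulk of the family, at 88.3% and 90.8%. Profilins did not pass. Pfn1 had a log2 fold change of -0.10 (SE 0.19), and of 0.09 without knockout replicate 3. Pfn2 stood at 32.4, 11.9 and 13.7 CPM in het and at 14.6, 11.8 and 15.4 CPM in knockout clones, high in het replicate 1 only.

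**Figure D3:**
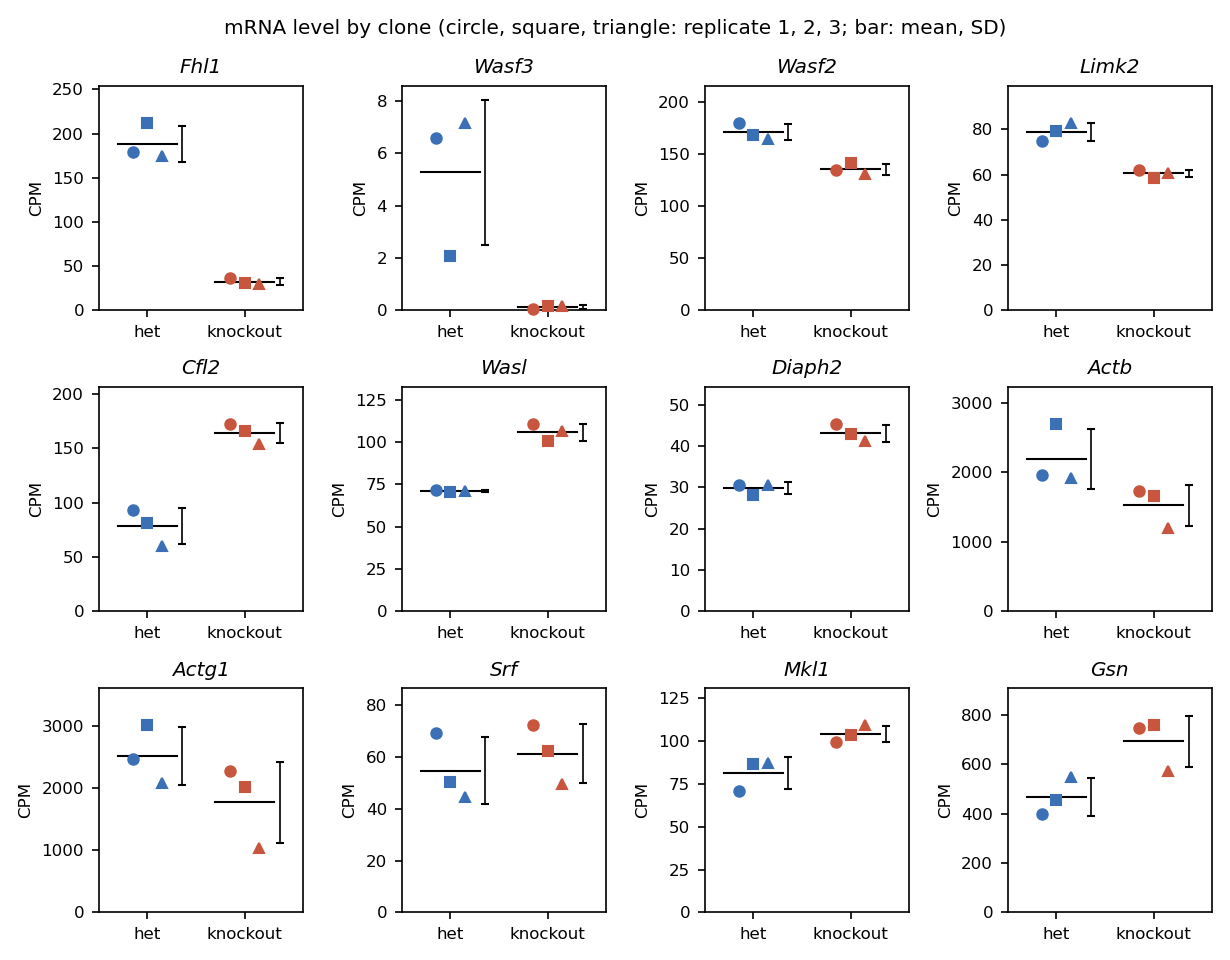
CPM of 12 of the genes in each clone, with the group mean as a line and 1 SD as a bar. For Fhl1, Wasf3, Wasf2, Limk2, Cfl2, Wasl and Diaph2 the clones of the genotypes do not overlap, and for Srf and Actg1 they do.

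The nucleation-promoting factors, which switch on the Arp2/3 complex, changed in both directions. Wasl encodes N-WASP, which responds to Cdc42 (chromosome 6, 24613805 to 24665009, minus strand). It measured 71.8, 70.3 and 71.3 CPM in het and 110, 100 and 106 CPM in knockout clones. Both groups were tight and well apart, with a 1.48-fold higher mean in knockout clones (log2 fold change 0.57, SE 0.08, adjusted p = 0.00415, edgeR). Wasf2 encodes WAVE2, the WAVE protein of lamellipodia downstream of Rac (chromosome 4, 133130505 to 133199756, plus strand). It measured 179, 168 and 164 CPM in het and 134, 141 and 131 CPM in knockout clones, lower in each (-0.33, SE 0.08, adjusted p = 0.0272, edgeR). This call ended when any clone other than knockout replicate 3 was left out (adjusted p 0.0536 to 0.0856). It also ended with no filter on low counts (adjusted p = 0.0739, edgeR) and with the local chromosome median taken out (-0.26, adjusted p = 0.0669, edgeR). Of its 2 main transcripts, Wasf2-202 fell from 29.0, 26.1 and 23.4 CPM to 15.6, 8.23 and 9.91 CPM (adjusted p = 0.0420, edgeR on transcripts). The longer Wasf2-201 measured 139.9 ± 3.48 and 127.6 ± 5.72 CPM and did not pass (adjusted p = 0.429, edgeR on transcripts).

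Wasf3, which encodes WAVE3 (chromosome 5, 146384985 to 146473615, plus strand), fell to a few counts from a low level. Its counts were 110, 37 and 114 in het and 1, 3 and 3 in knockout clones, or 6.58, 2.08 and 7.15 CPM against 0.06, 0.18 and 0.16 CPM. The 3 knockout clones were at or under the level of 3 counts. Pooled counts were 38.4-fold lower in knockout clones, with a counting interval of 18.4 to 96.5 that covers counting error only. The log2 fold change was -5.22 (SE 0.68, adjusted p = 0.00292, edgeR). Wasf1, which encodes WAVE1, did not pass (-0.18, SE 0.14). Counts divided by transcript length put Wasf3 at 2.52%, 0.84% and 3.00% of the 3 WAVE genes in het clones and at no more than 0.10% in knockout clones. Wasf2 was the main WAVE gene in every clone, at 78.7% to 83.3%.

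The Arp2/3 complex, which builds branched networks, held no gene that passed. By edgeR 0 of its 8 genes passed, against 28.1% of all genes, with 1 at an unadjusted p under 0.05, against 41.4%, and with DESeq2 Arpc1b passed (adjusted p = 0.0115). Log2 fold changes ran from -0.14 for Arpc5 to 0.34 for Arpc1b. The summed level was 1711, 1740 and 1637 CPM in het and 2041, 1831 and 1644 CPM in knockout clones, with overlap. Arpc1b was nearest to the threshold, at 340, 285 and 337 CPM in het and 414, 403 and 403 CPM in knockout clones (0.34, SE 0.11, adjusted p = 0.0571, edgeR). Its paralog Arpc1a also lay higher in each knockout clone (0.16, SE 0.08, adjusted p = 0.211, edgeR). The Arpc2 gene overlapped between genotypes (0.15, SE 0.13), but its second transcript, Arpc2-201, measured 23.7, 13.3 and 23.6 CPM in het and 52.3, 59.3 and 36.2 CPM in knockout clones. It only just passed (adjusted p = 0.0498, edgeR on transcripts). The main transcript Arpc2-203 measured 253 ± 28.6 and 269 ± 39.0 CPM. Counts of Arpc4 include an overlap of 283 bases with the neighbouring gene Ttll3, which held 6.48% as many counts. Cortactin (Cttn), which steadies branches, and the coronins Coro1b and Coro1c, which help take them apart, did not pass (-0.06, 0.21 and 0.29).

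Among formins, which nucleate straight filaments, Diaph2 rose. Diaph2 (chromosome X, 129749742 to 130465834, plus strand) measured 30.6, 28.3 and 30.7 CPM in het and 45.3, 42.8 and 41.2 CPM in knockout clones. Each group was narrow and they did not overlap (log2 fold change 0.53, SE 0.10, adjusted p = 0.00883, edgeR). Diaph3 did not pass, at 152 ± 3.91 and 160 ± 15.5 CPM (SD, n = 3). Diaph1 measured 150, 95.5 and 101 CPM in het and 172, 168 and 122 CPM in knockout clones, with overlap through het replicate 1 (0.41, SE 0.21, adjusted p = 0.191, edgeR). Without het replicate 1, Diaph1 passed (0.64, adjusted p = 0.0325, edgeR). Per length Diaph3 was the main formin of the set in het clones and Diaph2 the least abundant, at 60.2% and 7.55% of their FPKM.

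Of the kinases that act on this machinery, Limk2 fell. LIM kinases phosphorylate and inactivate cofilin, and ROCK kinases activate LIM kinases and myosin II. Limk2 (chromosome 11, 3344256 to 3409189, minus strand) measured 74.8, 79.4 and 82.6 CPM in het and 61.9, 58.7 and 60.8 CPM in knockout clones. The groups lay apart (log2 fold change -0.38, SE 0.09, adjusted p = 0.0186, edgeR). The call ended when het replicate 2, het replicate 3, knockout replicate 1 or knockout replicate 2 was left out (adjusted p 0.0506 to 0.0924). It also ended with the local chromosome median of -0.20 taken out (-0.19, adjusted p = 0.159, edgeR). Limk1 did not pass, at 20.6 ± 3.18 and 20.5 ± 1.28 CPM (SD, n = 3). Neither did Rock1 (-0.08, SE 0.12) or Rock2, which lay higher in each knockout clone (0.23, SE 0.09, adjusted p = 0.107, edgeR). The myosin II heavy chain genes Myh9 and Myh10, the motors of contraction, did not pass, at 1540 ± 130 and 1589 ± 187 CPM for Myh9 and 438 ± 34.3 and 469 ± 20.8 CPM for Myh10 (SD, n = 3).

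The capping, bundling and tip proteins held no gene that passed by edgeR. In 3 of these 5 genes the clones did not overlap and the unadjusted p was under 0.05, against 47.5% and 41.4% of all genes. Gsn, which encodes the severing and capping protein gelsolin, measured 397, 455 and 550 CPM in het and 747, 758 and 575 CPM in knockout clones. The gap between the highest het and the lowest knockout clone was small (log2 fold change 0.57, SE 0.17, adjusted p = 0.0501, edgeR). Its nearest 40 genes had a median of 0.35. Gsn passed in 7 of 17 alternatives, with an adjusted p of 0.0270 without knockout replicate 3. Capg, a capping protein of the gelsolin family, measured 159, 145 and 155 CPM in het and 121, 128 and 72.2 CPM in knockout clones, lower in each (-0.51, SE 0.21, adjusted p = 0.112, edgeR). Without knockout replicate 3 this was -0.30. Its minor transcript Capg-203 fell from 3.82, 3.963 and 3.798 CPM to 0.77, 1.19 and 0.85 CPM (adjusted p = 0.0200, edgeR on transcripts), and its main one, Capg-201, was just short (adjusted p = 0.0533, edgeR on transcripts). Enah, which encodes Mena, a protein that lengthens filaments at their tips, measured 121, 150 and 124 CPM in het and 90.3, 96.1 and 116 CPM in knockout clones (-0.39, SE 0.13, adjusted p = 0.0717, edgeR). It passed in 4 alternatives, 1 of them without knockout replicate 3 (adjusted p = 0.0322). Its relative Evl (0.23) and the bundling protein gene Fscn1 (0.20) overlapped between genotypes.

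Fhl1 fell and had the smallest adjusted p of the 42 genes. It encodes a small LIM-domain protein, abundant in striated muscle, of the family whose member FHL2 is known to bind SRF. Fhl1 (chromosome X, 56731787 to 56793346, plus strand) measured 179, 212 and 175 CPM in het and 37.0, 31.0 and 29.7 CPM in knockout clones. The lowest het clone stood several times above the highest knockout clone, and the means differed 5.79-fold (log2 fold change -2.53, SE 0.13, adjusted p = 8.23e-05, edgeR). The median of its 40 neighbours was 0.01. Fhl2 measured 51.7, 39.2 and 37.3 CPM in het and 63.3, 54.2 and 31.2 CPM in knockout clones, and Fhl3 47.5, 42.03 and 45.1 CPM and 41.8, 44.7 and 38.8 CPM. Both overlapped and neither passed (0.21, SE 0.27, and -0.10, SE 0.10). Its share of the FPKM of the family was 61.9% ± 5.05 in het and 21.04% ± 3.00 in knockout clones (SD, n = 3). In knockout clones Fhl2 held 43.2% and Fhl3 35.7%.

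Fhl1 transcripts began in 2 main regions, and both were lower in each knockout clone. Those that start upstream, between 56731787 and 56732129, measured 151, 66.5 and 68.8 CPM in het and 21.4, 24.3 and 20.5 CPM in knockout clones. Those of the middle region, between 56779437 and 56779819, which holds the CArG box printed above, measured 18.7, 136 and 99.1 CPM in het and 14.8, 5.89 and 7.16 CPM in knockout clones. Het replicate 1 thus used mostly the upstream region, and het replicates 2 and 3 mostly the middle one. Of the 3 most abundant transcripts, Fhl1-201 fell from 121, 39.0 and 50.7 CPM to 16.9, 19.3 and 16.2 CPM and Fhl1-203 from 25.2, 26.2 and 17.6 CPM to 5.66, 5.30 and 4.87 CPM (adjusted p = 0.0448 and 0.00638, edgeR on transcripts). Fhl1-204, of the middle region, had no counts in het replicate 1 and 118 and 82.5 CPM in the other het clones, and it did not pass (adjusted p = 0.312, edgeR on transcripts). Het replicate 1 also stood apart from the other het clones in Y-linked mRNA. Eif2s3y measured 79.7, 0.11 and 0.13 CPM in het and 157, 161 and 205 CPM in knockout clones. Ddx3y, also Y-linked, measured 60.0, 0.17 and 0.19 CPM in het and 0, 0.18 and 0.21 CPM in knockout clones. The part of this in the X-linked Fhl1 and Diaph2 was not tested. Summed over the gene, Fhl1 measured 179, 212 and 175 CPM and Diaph2 30.6, 28.3 and 30.7 CPM in het replicates 1, 2 and 3.

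**Figure D4:**
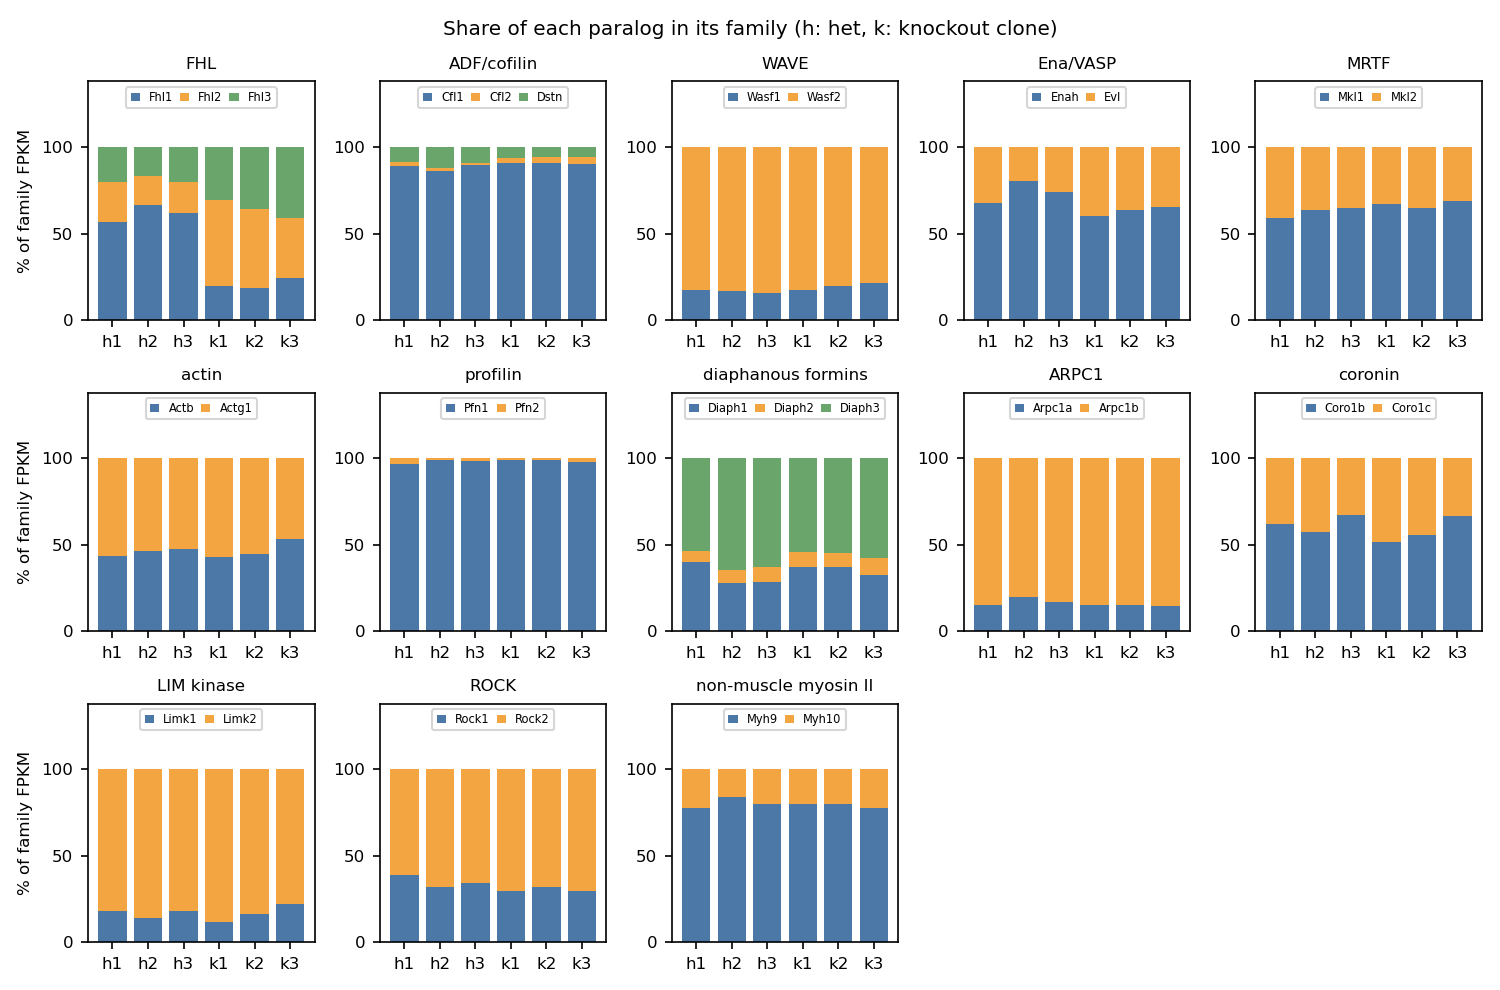
Share of each gene in the FPKM of its family, in percent, for 13 families with 2 or 3 measured members. Het clones are h1 to h3 and knockout clones k1 to k3. The FHL family shows the widest difference, with Fhl1 at 61.9% in het and 21.04% in knockout clones on average.

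Of 19 shares compared in 13 families, 8 did not overlap between genotypes. As levels of single genes, 47.5% of all genes tested did not overlap either, so such a count is common in these clones. Shares within a family add up to the whole, so shares of the same family are not separate results. With 3 clones against 3 the smallest two-sided p that an exact permutation test allows is 0.1, so none could pass. Adjusted over the 19 shares, the smallest p found here was 0.2375 (exact permutation test). Besides FHL and cofilin, the Enah share of Enah and Evl was 74.2% ± 6.28 in het and 63.2% ± 2.53 in knockout clones (SD, n = 3). The Wasf1 share of Wasf1 and Wasf2 was 16.7% ± 0.88 and 19.8% ± 1.96. In the other 9 families all shares overlapped as FPKM. From counts divided by transcript length 2 of these 9 had shares without overlap. Limk1 held 19.4% ± 3.43 of the LIM kinases in het and 24.6% ± 1.71 in knockout clones, and Diaph2 8.34% ± 0.74 and 10.5% ± 0.90 of the formins (SD, n = 3). At the level of transcripts, 12 of 163 tested transcripts of the 42 genes passed (7.36%), 3 higher and 9 lower, in 8 genes, against 7.92% of all transcripts tested. Of 141 transcripts in the authors' deposited table, 21 passed, 6 higher and 15 lower, in 14 of 41 genes, against 14% of all transcripts in that table. Coro1b transcripts appear there under duplicate identifiers with the same values, so the passing Coro1b-207 (log2 fold change -1.49) is counted more than once. Of the genes that passed on summed counts, Fhl1, Cfl2, Wasl and Wasf2 had a passing transcript there. Diaph2 and Limk2 had none, and Wasf3 was absent. Among genes that did not pass on summed counts, Actg1-204 (-0.87), Capg-201 (-0.63) and Fscn1-201 (1.35) passed there, with adjusted p of 0.0286, 0.0447 and 0.000342.

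Of the 5 genes with a CArG box in the window 1 passed, against 28.1% of all genes. Fhl1 fell, and Srf, Actg1, Fhl2 and Arpc4 did not pass, with log2 fold changes of 0.16, -0.51, 0.21 and -0.02.

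Known SRF targets outside the set were compared as a list of 36 symbols, of which 29 were tested. Among them 3 rose, 9 fell and 17 did not pass, that is 41.4% passing against 28.1% of all genes, with a median of -0.26 on the log2 scale. This list, like that of other actin regulators below, was drawn up with earlier results of these data known. Its share is therefore a description only. Flna and Mylk, which did not pass, stand in both lists. The list of SRF targets mixes cytoskeletal genes with immediate early genes. Of the latter, Egr1, Egr2, Fos and Fosb are among the 9 that fell, and Ier2 and Junb did not pass. A CArG box was found in 7 of the 28 listed genes with a promoter (25%). Tagln, which encodes the actin-binding protein transgelin, fell from 70.9, 45.8 and 30.1 CPM to 3.24, 1.72 and 1.65 CPM (edgeR log2 fold change -4.47, SE 0.43, adjusted p = 0.00131). Myl9, which encodes a myosin II regulatory light chain, fell from 6.88, 14.6 and 5.39 CPM to 0.43, 0.74 and 0.41 CPM (-4.08, SE 0.51, adjusted p = 0.00267, edgeR). These 2 lay in every het clone several times above every knockout clone. The actin-binding LIM protein gene Ablim1 fell from 90.8, 123 and 83.3 CPM to 12.3, 18.2 and 9.05 CPM (adjusted p = 0.00133, edgeR). Egr1, an immediate early transcription factor gene, fell from 197, 139 and 198 CPM to 42.1, 25.8 and 40.2 CPM (adjusted p = 0.00135, edgeR). Zyx, which encodes the focal adhesion protein zyxin, rose from 261, 239 and 194 CPM to 610, 580 and 368 CPM (log2 fold change 1.17). The LIM protein gene Tes rose from 45.4, 64.8 and 45.6 CPM to 142, 129 and 90.3 CPM (1.21), and Filip1l, which encodes a filamin-binding protein, from 239, 295 and 208 CPM to 404, 408 and 418 CPM (0.73). Filip1l lost its call without knockout replicate 2 (adjusted p = 0.0531, edgeR) and with its local median taken out (0.44, adjusted p = 0.0666, edgeR). Smooth muscle markers summed to 76.0 to 103 CPM in het and 85.5 to 140 CPM in knockout clones, mostly from Smtn, and Myh11 and Cnn1 did not go above 1.82 CPM. The sum therefore says little about the other markers. Cnn1 (0.36, 1.80 and 1.82 against 0.18, 0.31 and 0.21 CPM) and Actg2 (1.26, 0.96 and 0.38 against 0.31, 0.25 and 0.16 CPM) were lower in each knockout clone. Des was higher in each (0.66, 1.46 and 1.19 against 2.08, 4.18 and 3.00 CPM). Tagln was not counted among these markers. The part of smooth muscle markers in these differences was not tested.

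**Figure D5:**
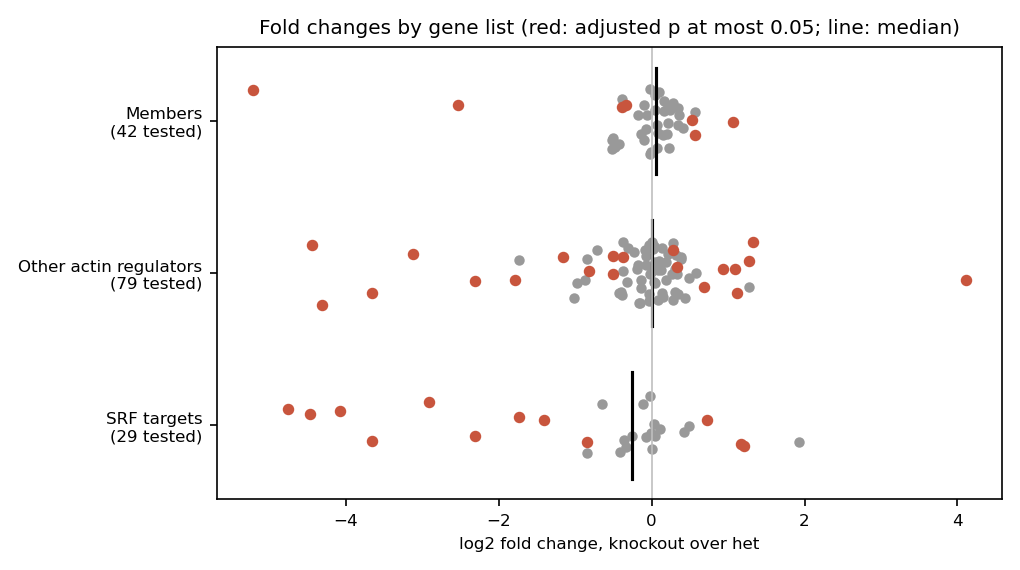
Log2 fold changes, knockout over het, of the 42 genes, of 79 other actin regulators and of 29 SRF targets, each point 1 gene, with red for genes that passed and a line at the median. The medians are 0.06, 0.01 and -0.26, and large losses are seen in each list.

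Other actin regulators, a list of 87 symbols with 79 tested, changed in both directions with 9 higher and 11 lower (25.3% passing, against 28.1% of all genes, of which 13.9% were higher and 14.2% lower) and a median of 0.01 on the log2 scale. Abi1, a subunit of the WAVE complex, rose from 127, 114 and 107 CPM to 317, 288 and 239 CPM (edgeR log2 fold change 1.28, SE 0.13, adjusted p = 0.00148). The median over its 40 neighbours was 0.54, and with that taken out the value was 0.74 (adjusted p = 0.00987, edgeR). Rhoc, a small GTPase gene, and Whamm, which encodes another Arp2/3 activator, rose with log2 fold changes of 1.11 and 1.09. Cobl, which encodes the nucleator cordon-bleu, rose from 2.81, 0.73 and 0.88 CPM to 40.1, 22.8 and 14.1 CPM (log2 fold change 4.12). Without 1 clone it ranged from 3.64 without knockout replicate 1 to 4.98 without het replicate 1, and with the transcripts of the deposited comparison only it was 11.13. Ssh3, a member of the slingshot phosphatases, which reactivate cofilin, fell from 41.6, 39.1 and 48.3 CPM to 0.86, 2.34 and 3.21 CPM (-4.32, SE 0.42, adjusted p = 0.00130, edgeR). Its level in every knockout clone was far below that in any het clone. The formin genes Fmnl2 and Daam2 fell, with log2 fold changes of -3.12 and -4.45, and the 6 other formin genes of the list that were tested did not pass. The coronin gene Coro2a also fell (-3.65), a call that ended with limma-voom (adjusted p = 0.0514).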

How the data were processed

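Stranded poly(A) RNA libraries of 3 het and 3 knockout clones were used. Tools listed in the submitters' processing notes are kallisto 0.42.5, Trimmomatic 0.36 and edgeR without a version, and the build listed is GRCm38.p4. Deposited by the authors were estimated counts for 96626 transcripts (48.2% of values not whole), FPKM for 24799 transcripts, and a comparison with log2 fold changes, log2 mean CPM and p-values, per the file headers.

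Estimated counts were summed per gene with GENCODE M21 (95301 transcripts matched, 253 through the deposited table, 1072 left out, at most 0.0273% of a library) and rounded. edgeR 4.0.16 in R 4.3.3 tested knockout against het with filterByExpr (minimum 10, total 15), TMM scaling and the robust quasi-likelihood test, two-sided, adjusted by Benjamini-Hochberg over 12693 genes. Standard errors come from the F statistic. Procedures were tested on simulated data. Shares within families use the FPKM. All 42 genes are named, and from the 2 other lists up to 4 passing genes per direction with the smallest adjusted p. Acta2, Egr2, Fos, Fosb, Ier2, Junb, Flna and Mylk are named outside that rule, after their values were seen. Of a gene with a passing transcript, the 3 most abundant are eligible, and other transcripts named were chosen after their values were seen. Genes and lists were chosen with earlier results of these data known. Alternatives were DESeq2 1.42.0, limma 3.58.1 (voom and log2 FPKM), other scalings and filters, a fold of 1.5, local medians taken out and each clone left out. Similar sequences were found with BLAST 2.17.0 (95% identity over 200 bases).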

Additional observations from a re-analysis of the deposited data

How the results depend on the processing

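Of 711 values of the 42 genes under the 17 alternatives, 679 stayed on the same side of the threshold, 16 lost a call and 16 gained one, and no called value changed sign. Fhl1 and Cfl2 passed in all 17, Wasf3 in all 14 that could be computed, and Wasl and Diaph2 in all but the test against a fold of 1.5. DESeq2 called 7 of the 42 genes higher and 6 lower, and 4350 of all genes. Against a fold of 1.5, 1 of them was higher and 2 lower, 4 and 4 of the other actin regulators, 1 SRF target was higher and 7 lower, and 1100 of all genes passed. With local chromosome medians taken out, 2 of the 42 were lower. When each clone was left out in turn, all genes passing ranged from 1559 (without knockout replicate 2) to 3815 (without het replicate 1), with 2182 without het replicate 2 and 1910 without knockout replicate 1. The 42 genes ranged from 3 to 4 higher and from 2 to 5 lower, with 2 lower in each fit that left out het replicate 2, het replicate 3, knockout replicate 1 or knockout replicate 2. The other actin regulators ranged from 5 to 11 higher and 6 to 12 lower, and SRF targets from 2 to 6 higher (6 without knockout replicate 3) and 8 to 12 lower. No paired analysis was possible because the labels carry no replicate numbers, and those used here follow accession order. Depth limits Wasf3, where 3 counts correspond to 0.155 to 0.188 CPM.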
